A study of Homo sapiens with 6 samples.

Results

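The genes described here are 33 targets of the transcription factor p53, measured in SKOV3 and A2780s cells, which are established human ovarian cancer cell lines. They were chosen by name, as genes known to be switched on by p53, and they cover its feedback loop, growth arrest, apoptosis, DNA repair and metabolism. On the Agilent Whole Human Genome array they are read by 54 of 41000 probes, and 20 genes have 1 probe while 13 have several. Each gene was represented by its brightest probe, the one with the highest mean log2 intensity over all 6 arrays. The array names 29123 genes in all.

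The study asked how gene expression changes when Hic-5, a focal adhesion scaffold protein encoded by TGFB1I1, is suppressed in SKOV3 or produced in excess in A2780s. In SKOV3, the clones sh-S1 and sh-S2 were made with lentiviral pLKO.1-puro vectors that carry an shRNA against Hic-5 and were selected with puromycin, and the Ctrl clone carries a scramble sequence in the same vector. In A2780s, the clone pCMV-Hic-5 was transfected with human Hic-5 in the pCMV6 vector and selected with neomycin, and its Ctrl clone carries the empty vector. Every RNA therefore comes from 1 selected stable clone, and the Ctrl clones went through the same selection as the clones they are set against. Each array held 1 modified clone and its Ctrl in different dyes, Cy3 and Cy5, and each pair of RNAs was hybridized a second time with the dyes exchanged. That gives 4 arrays in SKOV3 and 2 in A2780s. The arrays with exchanged dyes hold the same RNAs and are 1 replicate, so SKOV3 has n = 2 clones, which share 1 Ctrl RNA, and A2780s has 1 clone and no test of the condition.

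p53 is held at a low level by the ubiquitin ligase MDM2, which is itself a p53 target, and after DNA damage or oncogenic stress it accumulates and binds specific DNA elements near its target genes. Its targets then halt the cell cycle, start apoptosis through death receptors or mitochondria, repair DNA and adjust metabolism, and some of them limit p53 again. Many of these genes also respond to other factors.

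Promoter windows from RefSeq, which run from 250 bases before a gene's start to 50 bases after it on GRCh38.p14, were found for 27 of the 33 genes. They were searched for the p53 decamer consensus, which is its own reverse complement, so that one search covers both strands. A match lay in 1 window of each of 7 genes, 17.5% of the 40 windows of these genes, against 6.63% of the 35116 windows in all. These stretches are shown because they hold the element, with each match in capitals, and 6 of the genes had no window to search.
DDB2: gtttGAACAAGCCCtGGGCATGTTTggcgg
FDXR: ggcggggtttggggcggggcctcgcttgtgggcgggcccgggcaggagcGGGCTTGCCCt
RPS27L: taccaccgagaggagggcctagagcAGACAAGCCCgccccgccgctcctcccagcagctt
SESN1: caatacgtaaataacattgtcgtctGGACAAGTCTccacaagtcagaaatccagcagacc
AEN: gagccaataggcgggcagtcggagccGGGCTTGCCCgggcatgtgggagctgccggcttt
FAS: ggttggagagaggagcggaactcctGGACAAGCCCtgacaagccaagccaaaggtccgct
PLK2: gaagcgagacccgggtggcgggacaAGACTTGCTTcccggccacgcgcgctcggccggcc
The DDB2 stretch, at chr11:47214975-47215004 (plus strand), holds 2 matches with 1 base between them, and the first begins 5 bases past the gene's start. Such a pair, with at most 13 bases between its members, is found in 10 windows of the whole table, or 0.0285%. The match begins at position -11 from the start in FDXR (chr17:74872995-74873054 (minus strand)), -59 in RPS27L (chr15:63157502-63157561 (minus strand)) and -49 in SESN1 (chr6:109009003-109009062 (minus strand)). It begins at -34 in AEN (chr15:88621280-88621339 (plus strand)), -122 in FAS (chr10:88991284-88991343 (plus strand)) and -132 in PLK2 (chr5:58460184-58460243 (minus strand)). A match is a run of letters and not a shown binding site, and many p53 elements lie in introns or further away, outside these windows.

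Before the results, the arrays were checked against their labels. TGFB1I1 was not lower in either RNA labelled as a knockdown, which are called sh-S1 and sh-S2 here after their labels. Its log2 ratios ran from -0.16 to 0.28 over the 4 SKOV3 arrays, and limma gave a mean of 0.03 with an adjusted p of 0.855. Its log2 level was only 8.23 in SKOV3 Ctrl, against 12.78 in A2780s Ctrl, though well above background on all 4 SKOV3 Ctrl arrays. At low levels the background correction used here understates ratios, and whether it did so for TGFB1I1 was not tested. In pCMV-Hic-5 the ratio was 4.05 in Cy5 and 2.60 in Cy3, and the level in A2780s Ctrl was 4.55 above that in SKOV3 Ctrl on the log2 scale. Of 10 markers of ovarian cancer cells looked for, 9 were on the array. In SKOV3, 6 could be tested, of which 3 were called lower (4.15% of all probes) and 3 were not called. PAX8, KRT8 and KRT18 were those lower in sh-S1 and sh-S2, at -3.58, -2.14 and -3.52. In A2780s Ctrl against SKOV3 Ctrl they stood at -5.04, -3.89 and -5.29. There, 4 of 7 markers were at least 2-fold lower (9.5% of all probes) and 3 were not. In pCMV-Hic-5, 1 of 6 was at least 1.5-fold higher (3.26% of all probes) and 0 lower. The SKOV3 clones had been picked by measuring their Hic-5 mRNA and protein. The study took A2780s as a line with rather low Hic-5 protein and SKOV3 as one with strong Hic-5 expression. The TGFB1I1 RNA levels of the Ctrl clones here ran the other way. The array values of TGFB1I1 and these choices could not be brought together here. Every direction below, in SKOV3 and between the Ctrl RNAs, is that of the libraries so labelled. Across 23731 probes and within a dye, the levels of these RNAs correlated at 0.898 to 0.956 with SKOV3 Ctrl and at 0.916 to 0.953 with A2780s Ctrl, while both Ctrl RNAs correlated with each other at 0.853 in Cy3 and 0.867 in Cy5. In Cy3, where SKOV3 signals were bright, both were closer to A2780s Ctrl (0.936 against 0.907 for sh-S1 and 0.953 against 0.898 for sh-S2), and in Cy5 both were closer to SKOV3 Ctrl (0.956 against 0.916 and 0.950 against 0.923). These correlations are descriptions, since RNAs of 1 line share arrays and a slide. Of 5 leukocyte, endothelial and fibroblast markers, 2 were bright enough to be tested in SKOV3 and 3 in the other comparisons, and 0 of these passed the threshold. The Cy5 channel of the SKOV3 arrays was dim, with a median signal above background of 9.52 to 25.5 against 373.4 to 530.5 in Cy3, and 325.2 to 568.2 in A2780s. No spot of these genes was saturated.

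The first comparison sets the libraries labelled sh-S1 and sh-S2 against the SKOV3 Ctrl. Most p53 targets were higher in these RNAs, led by the glycolysis regulator C12orf5 (now TIGAR), the mitochondrial reductase FDXR and the cyclin CCNG1, whereas PLK2 and PERP were the lowest of all. Of 32 genes that passed the filter on dim probes, 9 were called higher and 4 lower by limma (adjusted p up to 0.05 with at least 2-fold), against 2.97% of all 24958 probes tested called higher and 4.15% called lower. By adjusted p alone, 23 were higher and 5 lower, against 15.5% and 16.2% of all probes. The median log2 ratio of the 32 genes was 0.65, against 0.00 over all probes. On every one of the 4 arrays, 22 genes lay above 0 and 5 below, against 18.5% and 19.5% of all probes, and 5 were of mixed direction. SESN1, ZMAT3 and SPATA18 were well above background on only 3, 2 and 2 of the 4 Ctrl arrays. They passed the filter through the clones alone, which favours a ratio above 0, and they count in the 23 and the 22. With every channel required to be bright, 28 genes were left, 9 higher and 3 lower (665 and 775 of 16719 probes), with a median of 0.68. TNFRSF10A, the death receptor DR4, was too dim to be tested.

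**Figure D1:**
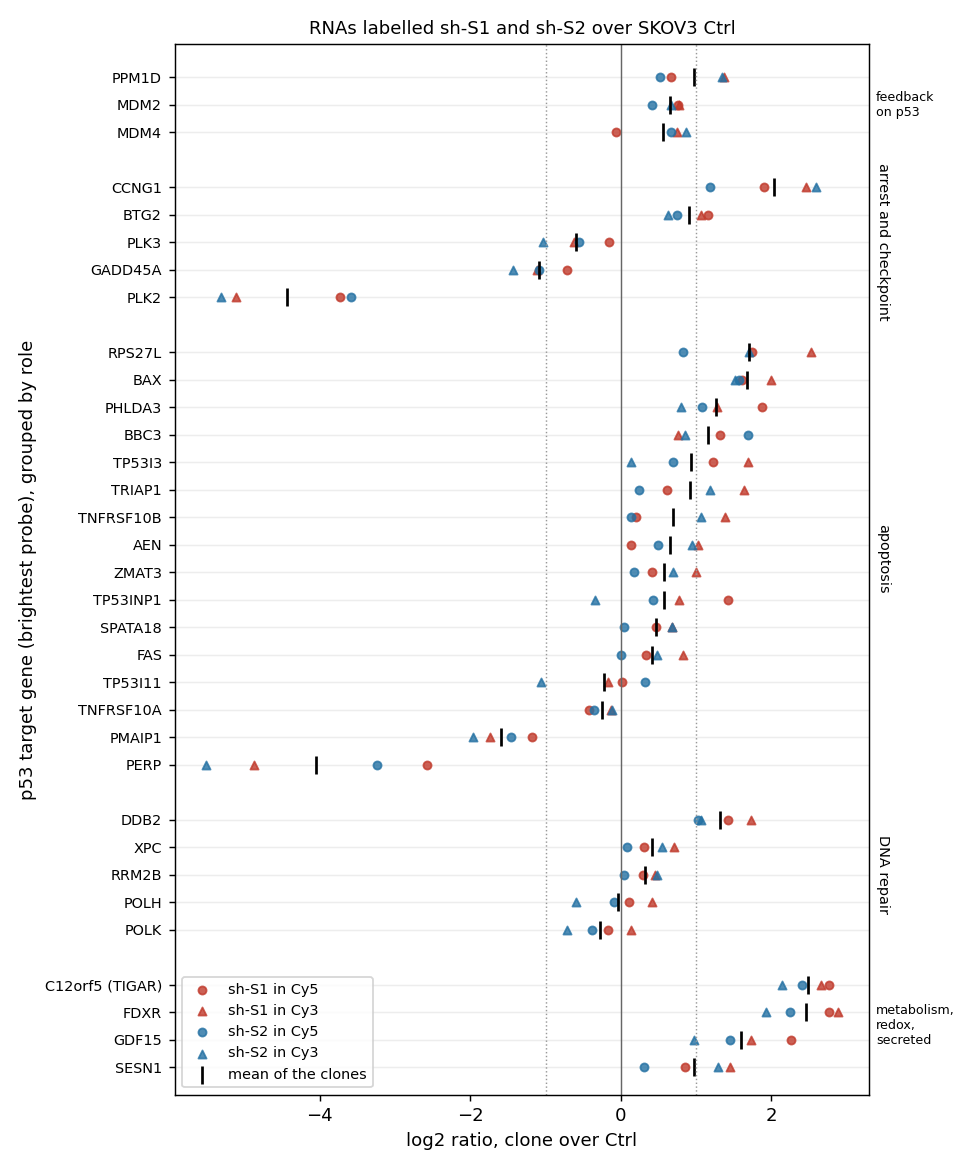
Log2 ratio of each p53 target gene on the 4 SKOV3 arrays (x axis, clone over Ctrl), with sh-S1 in red, sh-S2 in blue, circles for the clone in Cy5, triangles for the clone in Cy3, and a black bar for the mean of the clones. Dotted lines mark 2-fold, and PLK2 (-4.44) and PERP (-4.05) lie far to the left while C12orf5 (2.49), FDXR (2.46) and CCNG1 (2.04) lie to the right.

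The genes of metabolism, redox and secretion had the highest values of any group. Their median log2 ratio was 2.03, and 3 of 4 were called higher. C12orf5, which diverts glucose to the pentose phosphate pathway, had log2 ratios of 2.76 and 2.66 in sh-S1 (clone in Cy5, then in Cy3) and 2.40 and 2.15 in sh-S2. All 4 arrays thus stood more than 4-fold above the Ctrl, and the mean was 2.49 ± 0.31 (SD, n = 2 clones; adjusted p = 2.94e-05 from limma). Its other, dimmer probe had a mean of 0.22 (adjusted p = 0.179 from limma) and was not called. FDXR, ferredoxin reductase of the mitochondrial electron transfer chain, had 2.77 and 2.88 in sh-S1 and 2.25 and 1.93 in sh-S2, a mean of 2.46 ± 0.52 with an adjusted p of 0.000113 from limma. Both arrays of sh-S1 were above both arrays of sh-S2. GDF15, a secreted stress cytokine of the TGF-beta family, had 2.26 and 1.73 in sh-S1 and 1.45 and 0.98 in sh-S2, with a mean of 1.60 ± 0.55 (adjusted p = 0.00086 from limma). It was again higher in sh-S1 than in sh-S2 on every array. SESN1, a sestrin that restrains mTORC1 signalling, had 0.85, 1.45, 0.31 and 1.29 in the same order, and its mean of 0.98 (adjusted p = 0.00108 from limma) stayed just under 2-fold. It passed the filter only through the clones, so this p is not taken as support for a rise.

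All 3 genes of the feedback on p53 lay above 0 without reaching 2-fold. PPM1D, the phosphatase WIP1 that reverses damage signalling, had 0.67 and 1.37 in sh-S1 and 0.53 and 1.34 in sh-S2, with a mean of 0.98 ± 0.06 (SD, n = 2 clones; adjusted p = 0.000448 from limma). The clones were nearly equal, and the dye orientations differed by more than the clones did. MDM2, the ubiquitin ligase, had 0.77, 0.78, 0.41 and 0.67, with a mean of 0.66, and MDM4, its relative that masks the p53 activation domain, had -0.06, 0.75, 0.67 and 0.87, with a mean of 0.56. The 4 probes of MDM2 gave means between 0.05 and 0.66, of which the lowest came from a probe spotted 10 times on each array, and 1 of them was not tested. With the processed signals of the scanner software all 3 genes were called higher, PPM1D at 1.64, MDM2 at 1.53 and MDM4 at 1.35.

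The arrest and checkpoint genes split in direction. CCNG1, cyclin G1, was one of the genes with the largest rise, at 1.90 and 2.46 in sh-S1 and 1.19 and 2.59 in sh-S2, a mean of 2.04 ± 0.21 (SD, n = 2 clones; adjusted p = 3.73e-05 from limma). PLK2, a polo-like kinase that is active early in the cell cycle, went the other way at -3.73 and -5.12 in sh-S1 and -3.59 and -5.32 in sh-S2. Its mean of -4.44 ± 0.02 (adjusted p = 2.79e-06 from limma) was the lowest of all target genes, and the arrays with the clone in Cy3 gave the larger drop in both clones. GADD45A, a stress sensor that binds PCNA, had -0.72 and -1.11 in sh-S1 and -1.09 and -1.44 in sh-S2, with a mean of -1.09 ± 0.25 (adjusted p = 0.000666 from limma). PLK3, a stress-responsive kinase of the same family as PLK2, was below 0 on all 4 arrays, from -1.03 to -0.15, with a mean of -0.59 that fell short of 2-fold. BTG2, an antiproliferative cofactor of mRNA decay, was above 0 on all 4, from 0.63 to 1.16, with a mean of 0.90.

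Among 15 tested genes of apoptosis, 4 were called higher and 2 lower, with a median of 0.65. RPS27L, a ribosomal protein paralogue that modulates p53 stability, had 1.74 and 2.53 in sh-S1 and 0.83 and 1.70 in sh-S2, with a mean of 1.70 ± 0.61 (SD, n = 2 clones; adjusted p = 0.000919 from limma). BAX, which permeabilizes the outer mitochondrial membrane, had 1.61 and 1.99 in sh-S1 and 1.57 and 1.52 in sh-S2, with a mean of 1.67 ± 0.18 (adjusted p = 7.55e-05 from limma). All 3 probes of BAX were called higher, with means of 1.08 to 1.67. PHLDA3, which competes with Akt for membrane lipids, had 1.88 and 1.28 in sh-S1 and 1.08 and 0.80 in sh-S2, with a mean of 1.26 ± 0.45. BBC3, the BH3-only protein PUMA, had 1.32 and 0.76 in sh-S1 and 1.69 and 0.85 in sh-S2, with a mean of 1.16 ± 0.16 (adjusted p = 0.00033 from limma). Its other probes did not give the same size: one was called higher at 2.60, and the dimmest lay at 0.07.

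Both apoptosis genes that fell did so on all 4 arrays. PERP, a desmosomal membrane protein of epithelia as well as an apoptosis effector, had -2.58 and -4.88 in sh-S1 and -3.23 and -5.51 in sh-S2, with a mean of -4.05 ± 0.46 (SD, n = 2 clones; adjusted p = 1.04e-05 from limma). PMAIP1, the BH3-only protein NOXA, had -1.19 and -1.74 in sh-S1 and -1.46 and -1.97 in sh-S2, with a mean of -1.59 ± 0.18 (adjusted p = 9.33e-05 from limma). In PERP, as in PLK2, the arrays with the clone in Cy3 gave the larger drop, and PMAIP1 was well above background on 1 of the 2 arrays of sh-S1. The 9 apoptosis genes that were not called included the quinone oxidoreductase TP53I3 (0.94 ± 0.74, with the clones at 1.46 and 0.41), the caspase inhibitor TRIAP1 (0.92), the death receptor TNFRSF10B (0.70), the exonuclease AEN (0.65) and the RNA-binding protein ZMAT3 (0.57). SPATA18, which acts in mitochondrial quality control, had 0.47 and the death receptor FAS 0.41. Dimmer probes gave means of 0.02 for TNFRSF10B, -0.15 and 0.02 for SPATA18 and 0.35 for ZMAT3. TP53INP1, a stress protein that promotes autophagy and death, had 0.57 with an adjusted p of 0.105 from limma, and TP53I11 had -0.22 with an adjusted p of 0.183.

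Of the 5 DNA repair genes, only DDB2 was called. DDB2, which recognizes ultraviolet lesions and whose window holds the paired element printed above, had 1.43 and 1.74 in sh-S1 and 1.03 and 1.07 in sh-S2, with a mean of 1.32 ± 0.38 (SD, n = 2 clones; adjusted p = 0.000687 from limma). XPC, the other damage sensor of nucleotide excision repair, had a mean of 0.41 (adjusted p = 0.0211 from limma), and RRM2B, the p53-inducible subunit of ribonucleotide reductase, 0.32 (adjusted p = 0.0447). The translesion polymerases POLH (-0.04) and POLK (-0.28) did not pass either threshold. Of the 7 genes with a decamer match, 3 were called higher, 1 lower and 3 not called, and of the 20 genes with a window and no match, 5 were called higher, 2 lower and 13 not called.

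The clones did not carry these genes at the same height. In 29 of 32 genes the mean ratio was higher in sh-S1 than in sh-S2, which held for 51.4% of all probes, with a median difference of 0.35 on the log2 scale against 0.01 over all probes tested. The widest gaps were 1.05 in TP53INP1 and in TP53I3 (sh-S1 at 1.46 against sh-S2 at 0.41), followed by 0.87 in RPS27L (2.14 against 1.27). The 3 genes lower in sh-S1 were MDM4, BBC3 and AEN, by at most 0.43. The Ctrl RNA is the same on both sides of this difference, each clone is 1 RNA, and no test of it was possible. SPATA18, among the 29, passed the filter only through sh-S1. The sign of the mean was the same in both clones for 31 of the 32 genes.

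The number called moved with the setting. Called higher were 15 genes without sh-S2 and 8 without sh-S1, 17 with a normexp offset of 10 and 20 with the processed signals of the scanner software, and with those processed signals the ratio of 13 of the 32 genes was over 1.5 times the value given here, among them ZMAT3 (2.06), SESN1 (2.44) and PMAIP1 (-2.98). Calls that no longer reached 2-fold were PHLDA3 without sh-S1 (0.94), BBC3 with the clone in Cy3 alone (0.81), and GADD45A without sh-S2 (-0.92) and with the clone in Cy5 alone (-0.90). No called gene changed its direction under any setting.

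**Figure D2:**
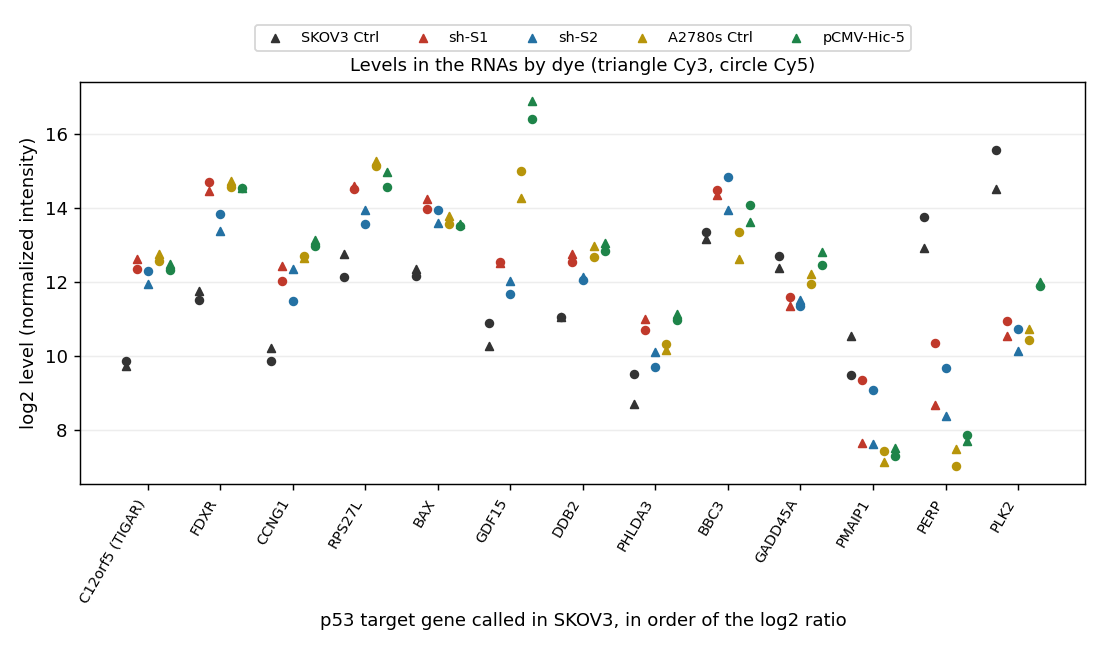
Log2 level (y axis, normalized intensity per channel) of the 13 genes called in SKOV3, in all 5 RNAs, with a triangle for the mean of the Cy3 channels and a circle for that of the Cy5 channels. In C12orf5, FDXR and CCNG1 the SKOV3 Ctrl lies below the other RNAs, and in PLK2 and PERP it lies above them.

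The next comparison sets pCMV-Hic-5 against its A2780s Ctrl. GDF15 and PLK2 stood highest, followed by BBC3 and PHLDA3, while C12orf5, FDXR, BAX and RPS27L lay at or below the Ctrl. By the rule of at least 1.5-fold with the same direction on both arrays, 7 of 33 genes were higher and 0 lower, against 3.26% and 1.32% of all 30531 probes. There is 1 pair of RNAs here, so no p-value was computed. The median log2 ratio was 0.14, against -0.01 over all probes. On both arrays, 18 genes lay above 0 and 9 below, against 31.2% and 28.5% of all probes, and 6 were of mixed direction.

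GDF15 had log2 ratios of 2.13 (clone in Cy5) and 1.90 (clone in Cy3), which average to 2.02 or 4.04-fold. Its level was 14.63 in A2780s Ctrl and 16.65 in pCMV-Hic-5 on the log2 scale, against 10.58 in SKOV3 Ctrl, 12.53 in sh-S1 and 11.85 in sh-S2. It was thus the gene with the highest ratio in A2780s and was also among those called higher in SKOV3.

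Of the arrest and checkpoint genes, all 5 lay above 0 on both arrays and 3 passed the fold rule, with a median of 0.61. PLK2 had 1.17 and 1.57, a mean of 1.37, PLK3 had 0.27 and 1.02, a mean of 0.64, and BTG2 had 0.66 and 0.57, a mean of 0.61. GADD45A, at 0.24 and 0.85, and CCNG1, at 0.32 and 0.44, did not reach 1.5-fold. The values of PLK3 differed by more between its arrays than its mean differs from 0.

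In the apoptosis group, 3 of 16 genes passed the fold rule. BBC3 had 1.46 and 0.28, a mean of 0.87, PHLDA3 had 0.80 and 0.81, a mean of 0.80, and AEN, a nuclease of apoptotic cells, had 0.79 and 0.51, a mean of 0.65. The arrays were nearly equal for PHLDA3 and far apart for BBC3. PERP reached 0.53 and FAS 0.34, while BAX (-0.13), TP53I3 (-0.28), ZMAT3 (-0.37) and RPS27L (-0.43) were below 0. No gene of the feedback group or of DNA repair passed the rule. MDM2 had 0.51 and 0.34, a mean of 0.43, by its brightest probe, while a dimmer one passed at 0.91 and 0.86, a mean of 0.88. The repair genes lay between -0.39 (POLH) and 0.17 (RRM2B). Required on each array alone, 1.5-fold was reached by 3 genes in place of 7.

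**Figure D3:**
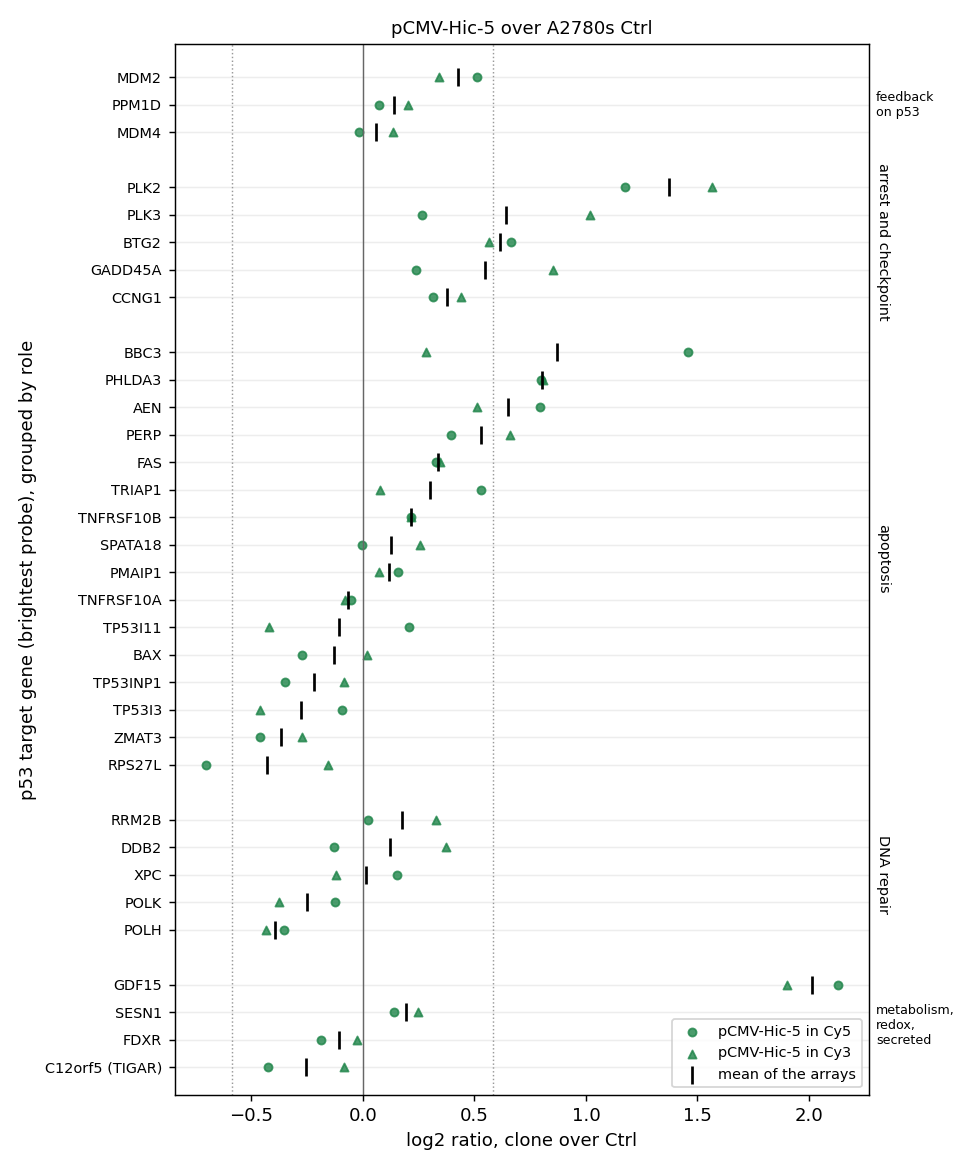
Log2 ratio of each p53 target gene on both A2780s arrays (x axis, pCMV-Hic-5 over Ctrl), with a circle for the clone in Cy5, a triangle for the clone in Cy3 and a black bar for their mean. Dotted lines mark 1.5-fold, and GDF15 (2.02) and PLK2 (1.37) stand apart from the other genes.

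A set of 5 genes lay below 0 on all 4 SKOV3 arrays and above 0 on both A2780s arrays. They are PLK2, GADD45A, PLK3, PERP and PMAIP1, 5 of 32 tested genes, and 6.05% of all 23731 probes tested in both comparisons did the same. The mean ratios of PLK2 were -4.44 in SKOV3 and 1.37 in A2780s, those of GADD45A -1.09 and 0.55, and those of PLK3 -0.59 and 0.64. PERP had -4.05 and 0.53, and PMAIP1 had -1.59 and 0.12. Only PLK2 and PLK3 of this set passed the fold rule in A2780s. For PMAIP1, the A2780s ratios of 0.16 (clone in Cy5) and 0.07 (clone in Cy3) compare with SDs of 0.15 and 0.27 over its 10 spots. The contrasts differ in the line, the vector and the direction of the Hic-5 change, and the difference between them was not tested.

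The last comparison sets the Ctrl clones of both lines side by side, A2780s Ctrl against SKOV3 Ctrl. Most p53 targets stood higher in A2780s Ctrl, with GDF15, FDXR and C12orf5 at the top, and PERP, PLK2 and PMAIP1 stood far lower. By at least 2-fold with the same direction in both dyes, 21 of 33 genes were higher and 3 lower, against 7.96% and 9.5% of all 30786 probes. SESN1, ZMAT3 and SPATA18, among the 21, passed the filter only through A2780s Ctrl, where they were high. With both Ctrl RNAs required to be bright on every array, 18 were higher and 3 lower (1557 and 2436 of 21606 probes). With the mean over the probes of each gene in place of the brightest probe, 18 were higher and 3 lower. The median difference was 1.31 on the log2 scale, against 0.06 over all probes. Each line is represented by 1 Ctrl clone with its own vector and selection drug, on a slide and scan of its own. Line, clone, vector, drug and slide therefore cannot be told apart, and no test was made. The comparison shares each Ctrl RNA with one of the comparisons above.

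GDF15 was 4.0 higher in Cy3 and 4.1 higher in Cy5, a mean difference of 4.05 on the log2 scale or 16.5-fold. FDXR was 2.96 and 3.05 higher, C12orf5 3.02 and 2.70, and SESN1 2.48 and 2.30. The dimmer probe of C12orf5 gave a mean difference of 1.30. The group of metabolism, redox and secreted genes thus passed the fold rule in 4 of 4, with a median of 2.93. SESN1, among them, passed the filter only through A2780s Ctrl, where it was high. All 3 feedback genes passed as well by their brightest probes, PPM1D at 2.61 (2.74 and 2.47 in the dyes), MDM2 at 1.84 (2.15 and 1.53) and MDM4 at 1.31 (1.43 and 1.19). The other probes gave 2.31, 0.69 and 0.37 for MDM2 and 1.27 and 0.71 for MDM4. Those at 0.69, 0.37 and 0.71 did not pass. All of these other probes passed the filter only through A2780s Ctrl.

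In the arrest group, CCNG1 was 2.44 and 2.84 higher and BTG2 1.87 and 1.64 higher, PLK2 was lower by a mean of -4.45 (-3.77 and -5.12), and PLK3 (0.66) and GADD45A (-0.45) did not pass. Of 16 apoptosis genes, 9 were higher, from PHLDA3 at 1.13 to RPS27L at 2.74, and PERP (-6.07) and PMAIP1 (-2.73) were lower. ZMAT3 and SPATA18, among the 9, passed the filter only through A2780s Ctrl. PERP was -5.44 in Cy3 and -6.70 in Cy5, the largest difference among the target genes. SPATA18 had 1.84 by its brightest probe and -1.79 by the next brightest, and BBC3 had -0.26 by its brightest probe and 2.66 by the next. TNFRSF10B had 1.28 by its brightest probe and 0.40 by the other, and a dimmer BAX probe at 0.96 did not pass. Of the repair genes, DDB2 (1.78), RRM2B (1.13) and POLH (1.08) passed, and XPC (0.81) and POLK (0.22) did not. The dimmer probes of POLH, at 0.18 and 0.23, did not pass. TNFRSF10A, TP53I11 and TP53INP1 lay between -0.18 and -0.01.

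**Figure D4:**
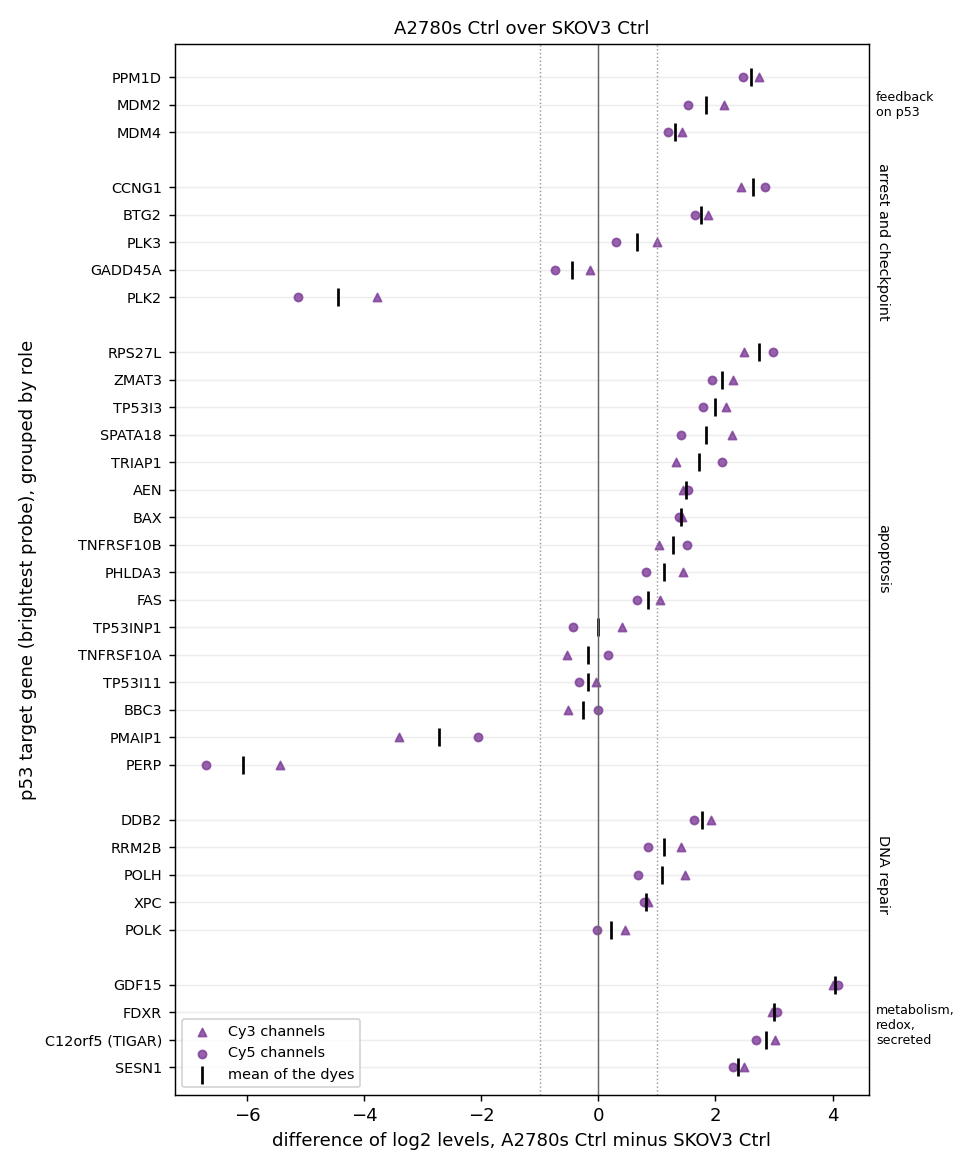
Difference of log2 levels of each p53 target gene (x axis, A2780s Ctrl minus SKOV3 Ctrl), with a triangle for the Cy3 channels, a circle for the Cy5 channels and a black bar for their mean. Dotted lines mark 2-fold, and 21 genes lie past it on the right while PERP (-6.07), PLK2 (-4.45) and PMAIP1 (-2.73) lie on the left.

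Set side by side, the values of some of the genes in the comparison of knockdown-labelled RNAs and the comparison of the Ctrl RNAs were as follows. C12orf5 had a ratio of 2.49 in the knockdown-labelled RNAs and a difference of 2.86 between the Ctrl RNAs, FDXR 2.46 and 3.01, and CCNG1 2.04 and 2.64. The dimmer probe of C12orf5 had 0.22 and 1.30. PLK2 had -4.44 and -4.45, PERP -4.05 and -6.07, and PMAIP1 -1.59 and -2.73. GADD45A had -1.09 and -0.45, and GDF15 had 1.60 and 4.05. The feedback genes lay further apart, with PPM1D at 0.98 and 2.61, MDM2 at 0.66 and 1.84 and MDM4 at 0.56 and 1.31. BBC3 had 1.16 and -0.26 by its brightest probe and 2.60 and 2.66 by the next brightest. Both values of each gene are taken against the same SKOV3 Ctrl RNA and are not independent of each other.

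Genes that act on p53 gave a flatter picture. Of 28 tested genes among 29 that act on p53 or are related to it, 3 were called higher in SKOV3 and 1 lower, against 2.97% and 4.15% of all probes. These were the ribosomal protein RPL5, which binds MDM2 (1.38), the checkpoint kinase CHEK2 (1.25), the locus of the MDM2 inhibitor p14ARF, CDKN2A (1.06), and the p53 kinase HIPK2 (-1.32). CDKN2A stood at 1.54 in sh-S1 and 0.58 in sh-S2, and CHEK2 at 0.92 and 1.59, so that each reached 2-fold in 1 clone. RPL5 and CHEK2 were also higher in A2780s Ctrl than in SKOV3 Ctrl, at 1.61 and 1.38. In A2780s, 0 of 29 passed the fold rule. The median of this list was -0.01 in SKOV3, against 0.65 for the target genes.

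A longer list of 49 further p53 targets did not share the height of the 33. In SKOV3, 4 of 42 tested genes were called higher and 2 lower (2.97% and 4.15% of all probes), with a median of -0.03. ACTA2, smooth muscle actin, had 2.61 and 2.74 in sh-S1 and 2.52 and 2.25 in sh-S2, a mean of 2.53 with an adjusted p of 1.49e-05 from limma. FBXO22, a ubiquitin ligase subunit (1.18), DDIT4, an inhibitor of mTORC1 (1.09), and CDKN1A, the cyclin-dependent kinase inhibitor p21 (1.01), were the others. The matrix protein THBS1 (-3.04) and the repressor E2F7 (-1.28) fell. CDKN1A had 1.27 and 1.24 in sh-S1 and 0.68 and 0.84 in sh-S2, so that the clones lay on either side of 2-fold. The same holds for DDIT4, at 0.54 in sh-S1 and 1.64 in sh-S2, and for E2F7, at -0.98 and -1.57.

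In A2780s, 10 of 47 further targets passed the fold rule upward and 0 downward (3.26% and 1.32% of all probes), with a median of 0.00. The highest were the antiproliferative gene BTG1 (1.53 and 1.71, mean 1.62), DDIT4 (1.43 and 1.14, mean 1.29), CDKN1A (1.40 and 0.85, mean 1.13) and the immediate early gene IER5 (0.79 and 1.23, mean 1.01). Between the Ctrl RNAs, 12 of 47 were higher in A2780s and 5 lower (7.96% and 9.5% of all probes), with a median of 0.29, and CDKN1A was 2.31 higher.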

How the data were processed

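RNA of 5 clones was measured on 6 dye-swapped arrays. The authors deposited the spot intensity and local background in both dyes as written by Agilent Feature Extraction (version 8.5.1.1 in the submitters' processing notes, 10.7.3.1 in the file headers), together with processed intensities. Deposited beside them are log10 ratios (Cy5 over Cy3), which matched the ratio column of the scanner files within 1% for all 45015 spots of each array, are not turned on dye-swapped arrays and were not used for results. Channels were assigned from the labels, and 1639 control spots were left out.

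The mean intensity was corrected in limma 3.58.1 (R 4.3.3) by normexp with an offset of 50. Spots with a background flag did not enter the fit of its parameters, and spots with a local background over 1000 were dropped. Ratios were normalized by loess within arrays, outlier spots were left out, spots of a probe were averaged, and each log2 ratio computed from the deposited intensities was turned to clone over Ctrl. Levels per channel followed from loess and Aquantile normalization. A probe entered if the Ctrl was well above background on every array of the comparison, or if a clone was on both. For SKOV3, the clone means were tested against 0 with lmFit and eBayes and Benjamini-Hochberg adjustment over all probes, which leaves out the spread of the single Ctrl RNA. For the other comparisons, fold rules without a test were used. The offset compresses low signals, so ratios of dim genes are understated. No source states that the clones came from independent cultures on separate days. The p-values rest on 2 clones, and limma draws the spread of each gene toward that of all probes. Its prior had 5.53 degrees of freedom, so the spread between the clones of a single gene counts for less.

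Alternatives covered background correction, normalization, filters, probes, dyes, thresholds and single clones. Probe positions in the files are on hg19, and promoter sequences are from RefSeq on GRCh38.p14. Precision is limited by signal over background and by how few arrays there are. One gene of the regulator list is not reported here. The genes, lists and tests were chosen with earlier results of these data known. Every target gene is accounted for, with values on each array for those called in SKOV3 or past the fold rule in A2780s, and of the other lists those called in SKOV3 with the 5 largest changes in each direction at most, to which the highest of A2780s were added after their values were seen.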

Additional observations from a re-analysis of the deposited data

How the results depend on the processing

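No paired analysis was possible because each ratio already sets a clone against its Ctrl on the same array, and both SKOV3 clones share 1 Ctrl RNA. No called target gene changed sign under any alternative. Of 1036 values of single genes under the alternatives, 911 counted as the same and 75 as moved. Another 46 newly passed the threshold and 4 no longer passed it, which was counted in SKOV3 only. In A2780s and between the Ctrl RNAs, values were judged by the spread between arrays or dyes, not by the call. There, all 33 genes counted as the same with the fold required on each array or dye. The number called higher nevertheless fell from 7 to 3 in A2780s and from 21 to 18 between the Ctrl RNAs.

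The number of target genes called higher in SKOV3 (9) was 23 by adjusted p alone, 20 with the processed signals of the scanner software, 17 with a normexp offset of 10, an alternative chosen after the data were seen, and 8 to 15 when 1 clone was left out, with 3 to 4 called lower. With 1 clone left there is no test, and the fold and direction on both arrays decide. In A2780s, the number higher (7) was 3 with 1.5-fold required on each array, and the number lower (0) was 1 with the clone in Cy5 alone.

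Over all probes in SKOV3, 742 were higher, against 3880 by adjusted p alone, 1971 with processed signals, 1216 with the clone in Cy3 alone, 1179 with the offset of 10 and 772 to 835 without 1 clone. There were 1037 lower, against 4036, 2356, 1388 (within 1.5 times) and 1645 in that order, 1579 with median centring and 979 to 1157 without 1 clone. In A2780s, 994 were higher, against 1797 with the clone in Cy5 alone and 495 with the fold required on each array, and 403 were lower, against 1519, 123, 214 with the clone in Cy3 alone and 700 with processed signals. Between the Ctrl RNAs, 2452 were higher, against 5515 with processed signals, 3756 with the offset of 10, 1557 with the stricter filter on dim probes and 1518 with the fold required in each dye, and 2925 were lower, against 4586 with processed signals and 1866 with the fold required in each dye.

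The dim Cy5 channel of the SKOV3 arrays limits these values. The median ratio of the target genes in SKOV3 was 0.37 with the clone in Cy5 alone and 0.83 with the clone in Cy3 alone, and 1.30 with processed signals. The cause of these differences was not tested.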
